A study of Mus musculus with 12 samples.

Results

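Wnt ligands are the secreted signals of a pathway that controls hair follicle formation, and the 10 ligand genes described here are Wnt3, Wnt4, Wnt5a, Wnt5b, Wnt6, Wnt7b, Wnt10a, Wnt10b, Wnt11 and Wnt16. They were chosen by name as ligands of skin, with earlier results of these data known. Every probe set annotated to 1 of these symbols alone was taken. This gave 17 of the 45037 probe sets on the array, which were averaged into 10 of 18193 genes, and no filter removed any of them. Wnt5a had 4 probe sets, Wnt4, Wnt5b, Wnt6 and Wnt7b had 2 each, and the other members had 1 each.

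RNA came from dermis of C57Bl6/CBA F1 mice and was hybridised to 12 Affymetrix MG430.2A arrays of 1 colour. The groups were P1 Tail and P1 Back, from mice 1 day after birth, and P5 Tail and P5 Back, from mice 5 days after birth, with 3 arrays in each group. The labels name no transgene and no treatment of the mice. Tail skin was soaked in EDTA and back skin in dispase-trypsin before the dermis was pulled from the epidermis with forceps and dissociated to single cells, so the effects of site and of solution cannot be told apart. Triplicate mice are stated for P1, and the text given for the P5 samples is that of P1. Where arrays of a group are not from separate animals, p-values measure a spread that may be technical.

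The labels of site go against the positional genes of these arrays. Of 13 measured posterior Hox genes, which mark the tail end of the body axis, 10 were called lower in arrays labelled tail at P1 and 9 at P5. Hoxd11 differed by -3.09 at P1 and -3.28 at P5 (log2, labelled tail minus labelled back). All 6 measured adipocyte genes were called higher in arrays labelled tail at P1, Adipoq by 5.23, a direction that opposes the one given in the study. Groups are therefore named by their labels throughout ("labelled tail", "labelled back", or in short "in tail" and "in back") and were not exchanged. Each difference between sites and each interaction below would change its sign if the labels were crossed. Each course with age would then belong to the other site. The array P5 Tail 2 stood apart, with the largest spread of the 12 arrays (SD 0.496 over probe sets, the others between 0.227 and 0.338) and the lowest array weight (0.180). P5 Tail 3 was next to it on the first principal component. Member results that gain or lose a call without these 2 arrays together are given without them too. That fit leaves P5 Tail 4 as the only array of its group, so differences that involve P5 Tail then rest on 1 array. For members only the size of such a difference is given, and it does not show that a call was kept. P5 Tail 4, which was kept, had a lower array weight than P5 Tail 3 (0.414 and 0.522). Values are log2 differences from the median of the 12 arrays, taken for each probe set singly. Levels were lost, ligands cannot be ranked against each other, and whether fibroblast genes were present in these samples cannot be read.

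A Wnt ligand is acylated by Porcn, carried to the cell surface by Wls, and bound there by a Frizzled receptor together with Lrp5 or Lrp6. In the canonical branch this stabilises beta-catenin, which enters the nucleus with Lef1 and Tcf factors, whereas the non-canonical branches act on cell polarity and movement. Epidermal Wnt signals start the hair placode, and dermal cells under it respond, among them those of the dermal papilla. Secreted inhibitors of the Dkk and Sfrp families limit the range of the signal. In dermis RNA, fewer cells of a type and less RNA per cell cannot be told apart.

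The sequences just before the transcription start of 4 members are shown because Wnt3, Wnt10b and Wnt16, each measured by 1 probe set, were called between groups and Wnt4 followed Wnt3 most closely among the members. They were taken from RefSeq (GRCm38.p6) and cut to the bases before the annotated start. Capitals mark matches on either strand to the GC box, GGGCGG, or to the CCAAT box, and overlapping matches were counted separately. The regions are chr11:103773925-103774174 on the plus strand for Wnt3, chr4:137277385-137277634 on the plus strand for Wnt4, chr6:22287977-22288177 on the plus strand for Wnt16 and chr15:98778207-98778400 on the minus strand for Wnt10b. Each is printed 5′ to 3′.
Wnt3: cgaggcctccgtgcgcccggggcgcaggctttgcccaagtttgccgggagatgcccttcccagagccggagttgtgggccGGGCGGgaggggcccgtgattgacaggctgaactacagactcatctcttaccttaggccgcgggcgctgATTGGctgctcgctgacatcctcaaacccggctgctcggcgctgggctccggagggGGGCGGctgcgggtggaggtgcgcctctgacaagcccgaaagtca
Wnt4: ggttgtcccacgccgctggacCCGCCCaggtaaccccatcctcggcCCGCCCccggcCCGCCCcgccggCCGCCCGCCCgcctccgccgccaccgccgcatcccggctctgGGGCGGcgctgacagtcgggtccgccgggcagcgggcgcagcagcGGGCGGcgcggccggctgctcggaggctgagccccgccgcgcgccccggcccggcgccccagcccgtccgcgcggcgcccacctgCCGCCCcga
Wnt16: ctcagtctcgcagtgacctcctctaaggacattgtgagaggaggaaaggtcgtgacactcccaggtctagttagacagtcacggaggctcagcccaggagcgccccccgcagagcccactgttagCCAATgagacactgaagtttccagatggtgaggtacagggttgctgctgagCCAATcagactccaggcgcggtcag
Wnt10b: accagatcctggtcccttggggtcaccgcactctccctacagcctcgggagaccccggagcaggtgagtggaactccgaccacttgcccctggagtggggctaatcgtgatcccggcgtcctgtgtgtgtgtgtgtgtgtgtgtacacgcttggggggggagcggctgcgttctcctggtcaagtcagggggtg

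The Wnt3 window of 250 bases held 2 GC boxes and 1 CCAAT, and 68% of its bases were G or C, with 22 CpG. That of Wnt4, of the same length, held 8 GC boxes, no CCAAT, 85.2% G or C and 44 CpG. Over 32851 windows of 250 bases the median was 52.4% G or C and 6 CpG, 32.7% held a GC box and 33.8% a CCAAT. The Wnt16 window of 201 bases held 2 CCAAT and no GC box, where 28.6% of windows of that length held a CCAAT. The Wnt10b window of 194 bases held neither motif. On either strand none of these 4 windows held the core that Tcf and Lef factors bind, searched as CTTTGA and also with its last base replaced, as CTTTGT, which 27.6% of windows of 250 bases held. They also lacked the TATA motif, searched as TATAAA, and the motif of AP-1 factors, searched as TGANTCA. These matches describe letters in a short window and were not tested against the expression values. The window of Wnt11 that was searched, of 222 bases and not printed, did hold 1 match to the Tcf and Lef core and 4 GC boxes. Windows of Wnt5b and Wnt6 were not searched, and promoters of Wnt5a, Wnt7b and Wnt10a were not analysed here.

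Of the 10 ligands, 1 was called between the sites at P1 and 2 at P5, 1 between ages in arrays labelled back and none in arrays labelled tail, by limma over all genes at an adjusted p of 0.05. The share of all 18193 genes called was 3.97% between sites at P1, 6.91% between sites at P5, 4.25% between ages in back and 5.3% between ages in tail. In 1 direction, 1.91% of genes were lower in arrays labelled tail at P1 (1 member), 4.3% were higher and 2.61% lower at P5 (1 member each), and 2.03% were lower at P5 than at P1 in back (1 member). Counts of 0 to 2 of 10 members stood too close to these shares to set the ligands apart from other genes. At an unadjusted p under 0.05 there were 5 members between sites at P1 (14.5% of all genes), 4 at P5 (20.3%), 7 between ages in back (13.4%) and 4 between ages in tail (20.7%). The median difference over the members was -0.11 at P1 and -0.03 at P5 between sites, -0.12 between ages in back and 0.13 between ages in tail, against -0.04, -0.02, 0.01 and 0.04 over all genes. The ligands thus had no shared direction, and 6 of the 10 did not pass in any comparison of 2 groups.

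**Figure D1:**
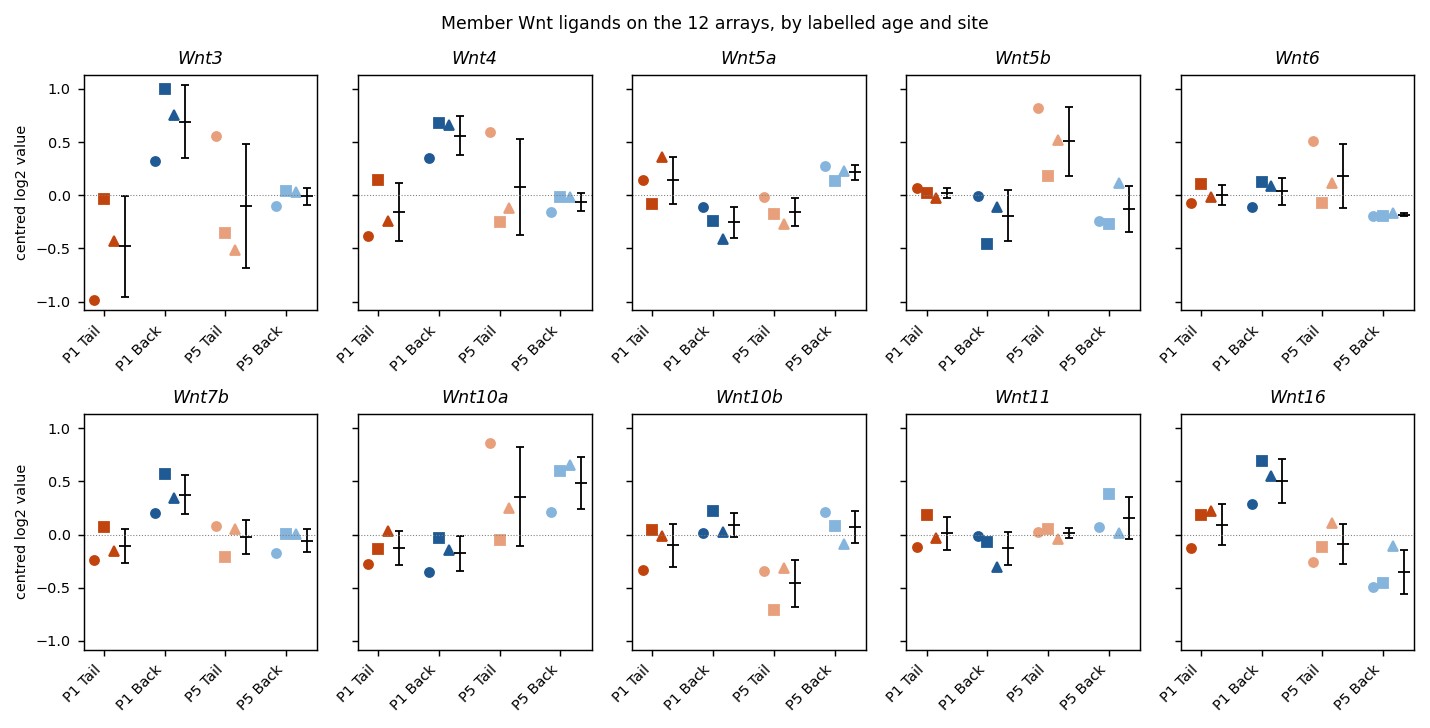
Centred log2 value (vertical axis) of each member on the 12 arrays, by labelled age and site; circles, squares and triangles are the arrays of a group in order of their number, and the black bar is the mean ± SD (n = 3). Wnt3, Wnt4, Wnt7b and Wnt16 have their highest group mean in P1 Back, as does Wnt10b by a smaller margin, and Wnt5b and Wnt6 have it in P5 Tail.

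Wnt3, Wnt4, Wnt7b and Wnt16 shared a pattern: each had its highest group mean in P1 Back, and the 3 arrays of P1 Back lay above the 3 arrays of P1 Tail. Wnt3 is a canonical ligand made by epidermis and hair follicle epithelium. On its single probe set (1450763_x_at) it was at 0.32, 1.00 and 0.76 in P1 Back and at -0.98, -0.03 and -0.43 in P1 Tail. It was at -0.11, 0.04 and 0.03 in P5 Back and at 0.56, -0.36 and -0.52 in P5 Tail. The P1 groups did not overlap, P5 Back was tight, and P5 Tail was spread widely, with its array 2 high. The group means ran from P1 Back (0.69) over P5 Back (-0.01) and P5 Tail (-0.10) to P1 Tail (-0.48), and of the neighbours in that order only P1 Back and P5 Back had arrays that did not overlap. Labelled tail minus labelled back was -1.17 (standard error 0.28) at P1, with an adjusted p of 0.034 from limma over all genes, which is 2.26-fold. At P5 the difference was -0.09 (standard error 0.28, adjusted p = 0.89 from limma). From P1 to P5 Wnt3 differed by -0.71 in arrays labelled back (standard error 0.28, adjusted p = 0.26 from limma) and by 0.38 in arrays labelled tail (adjusted p = 0.49), and neither passed. The call at P1 was lost without any of P1 Tail 4 or 6, P1 Back 5 or 6 and P5 Back 1, 2 or 3, with adjusted p between 0.051 and 0.15.

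Wnt4, which signals in epidermis and in several epithelial organs, lay close to Wnt3. Averaged over 2 probe sets it was at 0.35, 0.68 and 0.66 in P1 Back and at -0.38, 0.14 and -0.24 in P1 Tail. Its P5 values were -0.16, -0.02 and -0.01 in back and 0.59, -0.25 and -0.12 in tail. As for Wnt3, P5 Tail 2 was the high array of its group. The site difference at P1 was -0.72 (standard error 0.20, adjusted p = 0.073 from limma) and did not pass. Of its probe sets, 1441687_at passed at P1 when all probe sets were fitted singly (-0.92, standard error 0.21, adjusted p = 0.032 from limma), and 1450782_at did not (-0.52, adjusted p = 0.31). Without P5 Tail 2 and 3, which enter only the estimate of the spread, the mean of both passed (adjusted p = 0.014), as it did without P5 Tail 2 alone (0.011) or P1 Tail 5 (0.039). The difference from P1 to P5 was -0.63 in arrays labelled back (adjusted p = 0.13) and 0.24 in arrays labelled tail (adjusted p = 0.55, both from limma). That in back passed without P5 Tail 2 and 3 (adjusted p = 0.025) and without P5 Tail 2 alone (0.020).

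Wnt7b is a canonical ligand of epidermis and of the growing hair follicle. The mean of its 2 probe sets was at 0.20, 0.57 and 0.35 in P1 Back and at -0.24, 0.07 and -0.15 in P1 Tail. P5 Back was at -0.18, 0.0024 and 0.0071, and P5 Tail was at 0.08, -0.21 and 0.05. Thus only P1 Back stood apart, above all arrays of the other 3 groups. Labelled tail minus labelled back at P1 was -0.48 (standard error 0.13, adjusted p = 0.061 from limma), and P5 minus P1 in back was -0.43 (standard error 0.13, adjusted p = 0.096 from limma). Neither passed. The difference at P1 passed without P5 Tail 2 and 3 (adjusted p = 0.036), without either of them (0.044 and 0.046) and without P1 Tail 5 (0.040). In tail the difference between ages was 0.08 (adjusted p = 0.77).

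Wnt16, known from bone, where it protects cortical mass, and also made by keratinocytes, gave the most stable call among the members. On its probe set (1422941_at) P1 Back was at 0.28, 0.69 and 0.55, and P5 Back was at -0.50, -0.45 and -0.11. The age groups in arrays labelled back did not overlap. P1 Tail was at -0.13, 0.18 and 0.22, and P5 Tail was at -0.26, -0.12 and 0.11, so the tail groups did overlap. Wnt16 fell by 0.86 on the log2 scale from P1 to P5 in arrays labelled back (standard error 0.15), with an adjusted p of 0.0062 from limma, which is 1.82-fold. The call held with each of the 12 arrays left out in turn (adjusted p between 0.0045 and 0.039). In arrays labelled tail the difference was -0.18 (standard error 0.15, adjusted p = 0.55 from limma). The course did not differ between the sites past the threshold (interaction 0.68, standard error 0.22, adjusted p = 0.13 from limma). Between sites, labelled tail minus labelled back was -0.42 at P1 (adjusted p = 0.20) and 0.26 at P5 (adjusted p = 0.37).

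Like these 4 ligands, a list of differentiating keratinocyte genes had its highest group mean in P1 Back, although the samples are labelled as dermis by their preparation. A list of basal keratinocyte genes had its highest group mean in P5 Tail. The mean of 10 genes of differentiating keratinocytes lay between 0.80 and 1.14 in P1 Back, -1.51 and 0.20 in P1 Tail, -0.72 and -0.10 in P5 Back, and -0.28 and 0.13 in P5 Tail. P1 Back was thus the highest group for this list, as it was for Wnt3, Wnt4, Wnt7b and Wnt16. This was not particular to keratinocyte genes. P1 Back also had the highest group mean for cartilage (1.52, against 1.02 for differentiating keratinocytes) and posterior Hox genes (0.73). The same held for secreted Wnt inhibitors (0.17) and the beta-catenin cascade (0.09), whereas the adipocyte list had its lowest mean there (-1.44). Krt2, a keratin of the upper epidermis, differed by -7.57 between sites at P1, where the median over the 10 genes was -0.87. The mean of 8 basal keratinocyte genes lay between -0.0034 and 0.23 in P1 Back, -0.42 and -0.0038 in P1 Tail, -0.47 and -0.33 in P5 Back, and 0.29 and 0.54 in P5 Tail. By limma 2 basal genes and 1 differentiating gene were called lower in arrays labelled tail at P1, and 5 of each were called lower at P5 than at P1 in arrays labelled back. In arrays labelled tail 4 basal genes and 1 differentiating gene were called higher at P5. Which of these genes were at or near 0 cannot be read from centred values. The mean of 8 fibroblast genes lay between -0.15 and 0.20 over all arrays. Of these, 2 were called higher in arrays labelled tail at P1, Dpt by 0.99 and Col3a1 by 0.47, and at P5 2 were called higher, Dpt by 0.69 and Lum by 0.54, and Col1a2 lower (-0.46). The part of keratinocytes in the results of these ligands was not tested.

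**Figure D2:**
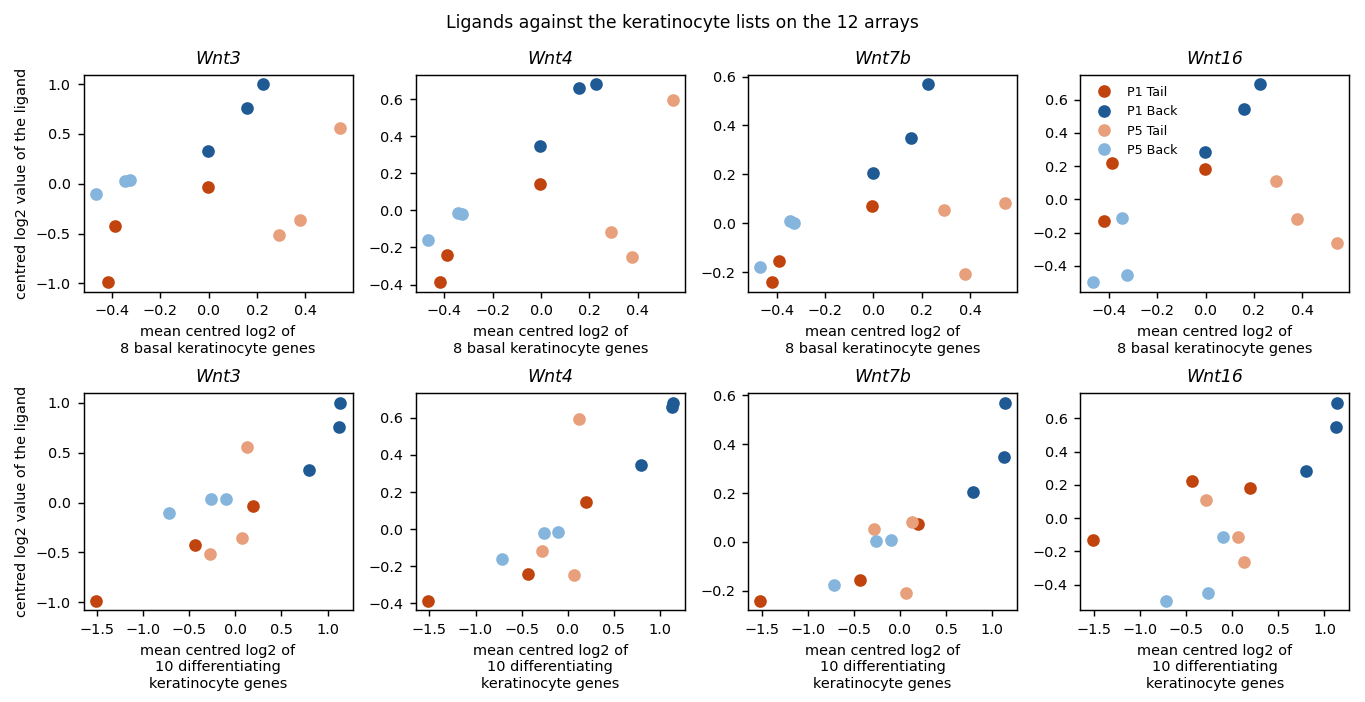
Centred log2 value of Wnt3, Wnt4, Wnt7b and Wnt16 (vertical axes) against the mean centred log2 value of 8 basal (top) and 10 differentiating (bottom) keratinocyte genes on the 12 arrays, coloured by group. The 3 arrays of P1 Back lie highest on the differentiating list, between 0.80 and 1.14, and P5 Tail lies highest on the basal list without the highest ligand values.

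Wnt10a, Wnt10b and Wnt6 are canonical ligands, and Wnt10b and Wnt10a are among the earliest signals of the hair placode. Wnt10a and Wnt6 are neighbours on chromosome 1. Wnt10b (1426091_a_at) was at -0.34, -0.71 and -0.32 in P5 Tail and at 0.21, 0.08 and -0.09 in P5 Back. The groups did not overlap, and P5 Tail 3 was the lowest array. At P1 the values were -0.33, 0.05 and -0.01 in tail and 0.01, 0.22 and 0.03 in back, which overlap. Labelled tail minus labelled back was -0.53 at P5 (standard error 0.14), with an adjusted p of 0.041 from limma, which is 1.44-fold. It was -0.19 at P1 (standard error 0.14, adjusted p = 0.61 from limma). Without P5 Tail 2 and 3, which leaves P5 Tail 4 alone in its group, the P5 difference was -0.39. The call was lost without any of P1 Tail 6, P1 Back 1, 5 or 6, P5 Tail 3, and P5 Back 1, 2 or 3. Adjusted p then lay between 0.053 and 0.16 (limma). Between ages Wnt10b differed by -0.02 in arrays labelled back (adjusted p = 0.99) and by -0.36 in arrays labelled tail (standard error 0.14, adjusted p = 0.17).

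Wnt10a (1460657_at) had higher means at P5 than at P1 at both sites. Its values were -0.35, -0.04 and -0.14 in P1 Back and 0.21, 0.60 and 0.66 in P5 Back, with no overlap. P1 Tail was at -0.28, -0.13 and 0.04, and P5 Tail was at 0.86, -0.05 and 0.25. The tail groups overlapped, and P5 Tail 2 was the highest of all 12 arrays. P5 minus P1 was 0.66 in arrays labelled back (standard error 0.20, adjusted p = 0.10 from limma) and 0.48 in arrays labelled tail (standard error 0.20, adjusted p = 0.20), and neither passed. Without P5 Tail 2 and 3 the difference in back passed, at an adjusted p of 0.018, and without P5 Tail 2 alone at 0.019. Between sites it differed by 0.05 at P1 (adjusted p = 0.94) and -0.13 at P5 (adjusted p = 0.77). On the same arrays, 8 of 11 hair follicle epithelium genes were called higher at P5 than at P1 in arrays labelled back, and their mean lay between -0.45 and -0.29 in P1 Back and between 0.28 and 0.48 in P5 Back. The part of follicle epithelium in the values of Wnt10a was not tested.

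Wnt6, an epithelial ligand, varied least between arrays of P5 Back. It was at -0.19, -0.19 and -0.17 there and at 0.51, -0.07 and 0.11 in P5 Tail. All arrays labelled tail at P5 lay above those labelled back. P1 Tail was at -0.07, 0.11 and -0.02, and P1 Back was at -0.11, 0.13 and 0.09. Labelled tail minus labelled back was 0.37 at P5 (standard error 0.14, adjusted p = 0.14 from limma) and -0.03 at P1 (adjusted p = 0.95). The P5 difference passed without P5 Tail 3 (0.50, adjusted p = 0.041). Between ages it differed by -0.22 in back (adjusted p = 0.60) and 0.18 in tail (adjusted p = 0.50). Its probe sets were unequal at P5, with 0.62 for 1435980_x_at (standard error 0.17, adjusted p = 0.057 over all probe sets) and 0.12 for 1419708_at (adjusted p = 0.68, limma).

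Wnt5a, Wnt5b and Wnt11 are ligands of the non-canonical branches. Wnt5a, made by dermal cells and known for its role in outgrowth and cell polarity, had opposite site differences at the 2 ages. It was at 0.15, -0.08 and 0.36 in P1 Tail and at -0.11, -0.24 and -0.41 in P1 Back. At P5 it was at -0.02, -0.18 and -0.27 in tail and at 0.28, 0.14 and 0.23 in back. The groups did not overlap at either age, tail being the higher at P1 and back the higher at P5. The site differences themselves were 0.39 at P1 (standard error 0.13, adjusted p = 0.13 from limma) and -0.37 at P5 (standard error 0.13, adjusted p = 0.11), and neither passed. The interaction, which is the site difference at P5 minus that at P1, was -0.76 (standard error 0.18), with an adjusted p of 0.039 from limma. It was the 1 member called of 10, where 2.87% of all genes were called, 0.94% in that direction. P5 minus P1 was 0.47 in arrays labelled back (standard error 0.13, adjusted p = 0.061) and -0.30 in arrays labelled tail (standard error 0.13, adjusted p = 0.21). That in back passed without P5 Tail 2 and 3 (adjusted p = 0.042), without P5 Tail 2 alone (0.039) and without P1 Tail 5 (0.042). All 4 probe sets had the same sign in each of these comparisons, with interactions between -1.03 and -0.61, and none passed singly. The call held without P1 Tail 5, P1 Back 1 or P5 Tail 2. It was lost without any of the other 9 arrays (adjusted p between 0.057 and 0.13 from limma). Without P5 Tail 2 and 3 together, which leaves P5 Tail 4 alone in its group, the interaction was -0.88. On the same arrays 5 of 6 adipocyte genes were called lower in the interaction. Their mean lay between -1.47 and -1.42 on the arrays of P1 Back and between 1.10 and 1.75 on those of P1 Tail. At P5 it lay between -0.53 and -0.056 in back and between -0.0073 and 0.45 in tail. The part of fat cells in the values of Wnt5a was not tested.

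Wnt5b, a paralogue of Wnt5a known in cartilage and fat cell differentiation, was highest in P5 Tail. Averaged over 2 probe sets it was at 0.82, 0.18 and 0.52 in P5 Tail and at -0.24, -0.27 and 0.12 in P5 Back. P1 Tail was at 0.07, 0.02 and -0.03, and P1 Back was at -0.0077, -0.46 and -0.11. The P5 groups did not overlap, and P5 Tail also lay above P1 Tail. Labelled tail minus labelled back was 0.64 at P5 (standard error 0.17), with an adjusted p of 0.039 from limma, which is 1.56-fold, and 0.21 at P1 (standard error 0.17, adjusted p = 0.64). Most of it came from 1439373_x_at (0.91, adjusted p = 0.039 over all probe sets) and less from 1422602_a_at (0.36, adjusted p = 0.19, limma). Without P5 Tail 2 and 3, which leaves P5 Tail 4 alone in its group, the difference was 0.65. The call was lost without any of P1 Tail 5 or 6, P1 Back 6, P5 Tail 2 or 4, and P5 Back 1 or 2. Adjusted p then lay between 0.052 and 0.15 (limma). From P1 to P5 Wnt5b differed by 0.49 in arrays labelled tail (standard error 0.17, adjusted p = 0.12 from limma) and by 0.06 in arrays labelled back (adjusted p = 0.97). That in tail passed without P5 Tail 3 (0.65, adjusted p = 0.032). On the same arrays 4 of 8 basal keratinocyte genes were called higher in arrays labelled tail at P5, and their part in this result was not tested.

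Wnt11, a ligand of cell movement, passed in no comparison. It was at -0.12, 0.19 and -0.03 in P1 Tail and at -0.01, -0.07 and -0.31 in P1 Back. P5 Tail was at 0.03, 0.05 and -0.04, and P5 Back was at 0.07, 0.39 and 0.01. The largest of its differences between 2 groups was P5 minus P1 in arrays labelled back, at 0.29 (standard error 0.13, adjusted p = 0.34 from limma), where the groups did not overlap. Its range over the 12 arrays, 0.695, was the narrowest of the members, and that of Wnt3, 1.98, was the widest.

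**Figure D3:**
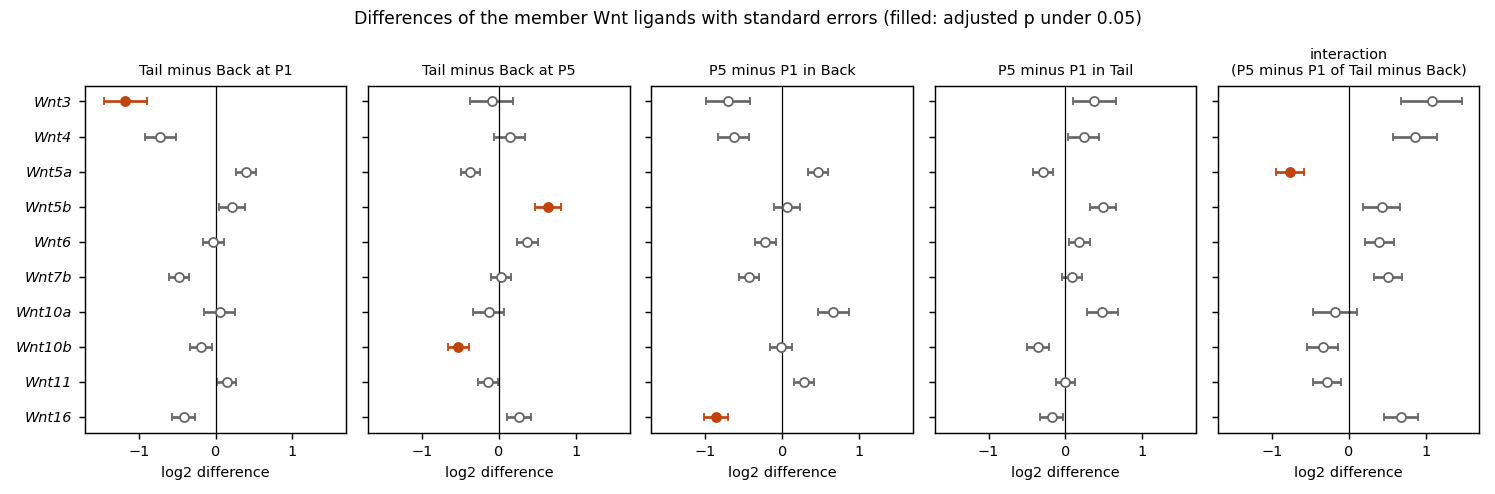
Log2 difference of each member (horizontal axis) in the comparisons of sites at P1 and P5, of ages in back and tail, and in the interaction; bars are standard errors from limma and filled points passed an adjusted p of 0.05. Wnt3 at P1, Wnt5b and Wnt10b at P5, Wnt16 between ages in back and Wnt5a in the interaction are filled.

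Counting arrays rather than tests, 5 members did not overlap between sites at P1 (4 lower and 1 higher in arrays labelled tail), as did 30.2% of all genes (17.6% lower and 12.6% higher). At P5 there were 4 members, 2 in each direction, against 20.6% of all genes (11% higher and 9.58% lower). Between ages there were 8 of 10 members in arrays labelled back, Wnt5a, Wnt10a and Wnt11 higher and Wnt3, Wnt4, Wnt6, Wnt7b and Wnt16 lower at P5, against 28% of all genes (14.4% higher and 13.6% lower). In arrays labelled tail it was Wnt5b alone, which was higher, against 19.4% (11.1% higher). The count in back and that in tail rest on different arrays, and that in tail includes P5 Tail 2, the array that stood apart. Whether more members moved with age at one site than at the other was not tested beyond the interactions, of which that of Wnt5a passed and those of Wnt3 (1.08, adjusted p = 0.21), Wnt4 (0.86, adjusted p = 0.15), Wnt7b (0.51, adjusted p = 0.19) and Wnt16 (0.68, adjusted p = 0.13) did not.

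Probe sets of 1 gene mostly agreed in sign. In all 5 comparisons the probe sets of Wnt4, Wnt5a and Wnt6 had the same sign. Those of Wnt5b differed in sign between ages in back (0.13 and -0.00095), and those of Wnt7b between sites at P5 (0.18 and -0.11). Over the 12 arrays, probe sets of 1 gene correlated at r of 0.60 to 0.90 in Wnt5a (6 pairs), and at 0.88 in Wnt4, 0.86 in Wnt5b, 0.66 in Wnt6 and 0.66 in Wnt7b. The probe sets of Wnt3, Wnt5b and Wnt10b, and 1 of Wnt6, carry suffixes that Affymetrix gives where probes can match several transcripts, so these values may hold signal of other transcripts.

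Over the 12 arrays, which share 1 normalisation and the 4 groups, the members formed 45 pairs with a median r of 0.10. Of these, 3 exceeded 0.8: Wnt3 with Wnt4 at 0.95, Wnt4 with Wnt7b at 0.89 and Wnt3 with Wnt7b at 0.87. Wnt7b and Wnt16 followed at 0.75. Among all genes, Lipg (0.95), Wnt4 (0.95) and Pak6 (0.94) were most like Wnt3. Ctnnbip1 (0.96), a protein that blocks beta-catenin from Tcf factors, and Slurp1 (0.96), a secreted epidermal peptide, were most like Wnt4. Pdzk1ip1 (0.95), Plppr1 (0.94) and Adh6a (0.93) were most like Wnt7b, and Stx11 (0.92), Satb1 (0.92) and Slc22a4 (0.90) were most like Wnt16. For Wnt5a these were Sike1 (0.92), Ceacam1 (0.89) and Ssu72 (0.89), and for Wnt5b Sulf2 (0.94), a sulfatase acting on heparan sulfate, Tubb4a (0.93) and Rarres2 (0.92). Cntfr (0.93), Dusp8 (0.93) and Tnfrsf19 (0.92) were most like Wnt6, and Def6 (0.96), Hsd17b14 (0.94) and Slc66a1 (0.94) most like Wnt10a. Fam167b (0.97), Aipl1 (0.93) and Asgr2 (0.92) were most like Wnt10b, and Gpha2 (0.86), Gm8579 (0.85) and Rorb (0.84) most like Wnt11. No gene resembled Wnt11 as closely as the nearest gene of any other member did.

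Neighbouring Wnt genes did not share a call. Wnt3 lies beside Wnt9b on chromosome 11, Wnt10b beside Wnt1 on chromosome 15, and Wnt6 beside Wnt10a on chromosome 1. At P1 Wnt9b differed by -0.20 between sites (adjusted p = 0.61 from limma) beside -1.17 for Wnt3. At P5 Wnt1 differed by 0.07 (adjusted p = 0.81) beside -0.53 for Wnt10b. Ages in back differed by 0.66 in Wnt10a and -0.22 in Wnt6. Beside Wnt5a, Cacna2d3, a calcium channel subunit, was called higher at P5 in arrays labelled back (1.03, adjusted p = 0.0037) and labelled tail (0.66, adjusted p = 0.041). Beside Wnt7b, Ppara, a nuclear receptor for fatty acids, was called higher at P5 in arrays labelled tail than in those labelled back (0.64, adjusted p = 0.0046), where Wnt7b differed by 0.03.

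Around the ligands, 87 other genes of the pathway were measured, in lists chosen with earlier results of these data known. Of these, 10 were called between sites at P1 and 15 at P5 (limma, over all genes). Between ages 8 were called in back and 13 in tail, and 5 were called in the interaction. The shares of all genes called were 3.97%, 6.91%, 4.25%, 5.3% and 2.87%, in the same order. None of the 9 other Wnt ligands was called in any of the 5 comparisons, and at an unadjusted p under 0.05 they numbered 2, 1, 1, 2 and 0 in that order. Without P5 Tail 2 and 3, Wnt2 and Wnt2b were called between sites at P1, Wnt2 and Wnt8a between ages in back and Wnt8a between ages in tail. All 9 had a negative site difference at P1, between -0.42 and -0.09. A list of 3 genes that act on the ligands held Porcn, Wls and Notum. Of these, Wls, the carrier that every lipid-bearing Wnt needs, was higher in arrays labelled tail at P1 (0.66, standard error 0.098, adjusted p = 0.0017 from limma) and P5 (0.58, adjusted p = 0.0030). So the carrier was higher in the labelled tail at both ages while the ligands went both ways. Among 16 receptors, Fzd1 (0.65) and Fzd4 (0.97) were higher in arrays labelled tail at P1, and Fzd7 (0.65) and Ror1 (0.82) at P5. With age, Fzd1 rose in back (0.82), and in tail Fzd7 (0.69) and Fzd6 (0.41) rose and Fzd4 fell (-1.10).

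Among 9 R-spondins and their receptors, which strengthen Wnt signals, Rspo1 was higher in arrays labelled tail at P1 (1.48) and P5 (1.30), and Lgr5 was higher at P1 (0.84). Lgr6 was higher at P5 (1.86), fell with age in back (-0.60) and rose in tail (0.89). Of 14 secreted inhibitors, Sfrp4 was higher (1.30) and Sostdc1 lower (-0.72) in arrays labelled tail at P1, and at P5 both had the opposite sign (-0.61 and 1.07), with Sfrp1 higher (1.30). The interactions of Sfrp4 (-1.91), Sostdc1 (1.79), Fzd4 (-1.43) and Lgr6 (1.49) passed, as that of Wnt5a did. Dkk1, an inhibitor that binds Lrp receptors, fell with age by 2.12 in back and by 2.07 in tail, and Dkk2 rose (0.91 and 1.22). Sostdc1 fell with age in back (-0.68). In tail Sfrp1 (1.09), Sostdc1 (1.11) and Dkk3 (0.60) rose with age, and Sfrp4 (-1.50) and Frzb (-0.89) fell. Both Dkk1 falls were larger than the age difference of any member, the largest of which was that of Wnt16.

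Of 15 genes of the beta-catenin cascade, Ctnnbip1 alone was called, lower in arrays labelled tail at P1 (-1.02, standard error 0.20, adjusted p = 0.0092 from limma) and lower at P5 in back (-0.97), with an interaction of 1.17. Its directions were those of Wnt3 and Wnt4 on the same arrays. Among 11 beta-catenin targets, Apcdd1 (0.87) and Prdm1 (0.67) were higher in arrays labelled tail at P1. At P5 Apcdd1 (0.61), Axin2 (0.48), a general readout of the canonical branch, Twist1 (0.79) and Twist2 (0.69) were higher and Lef1 lower (-0.53). In back Lef1 rose (0.56) and Twist2 fell (-0.87) with age, and no target was called in tail. Wnt3, the ligand called at P1, was lower in arrays labelled tail, whereas both targets called there were higher. The targets as a list were split at P1: 7 of 11 differences were positive, with a median of 0.05 and a lowest of -0.49. Of 10 polarity genes none was called at P1, when the largest difference of a member was -1.17 in Wnt3. At P5 Vangl1 was higher (0.72) and Prickle1 lower (-0.55) in arrays labelled tail, and with age Vangl1 (0.64) and Celsr1 (0.87) rose in tail. Without P5 Tail 2 and 3, which leaves P5 Tail 4 alone in its group, fewer pathway genes were called between sites at P5. Fzd7, Sfrp4, Axin2, Apcdd1, Twist2, Vangl1 and Prickle1 were then not called, and Sfrp2 was. Between ages in tail Fzd6, Lgr6, Dkk3, Frzb, Vangl1 and Celsr1 were then not called, nor was the interaction of Ctnnbip1.

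**Figure D4:**
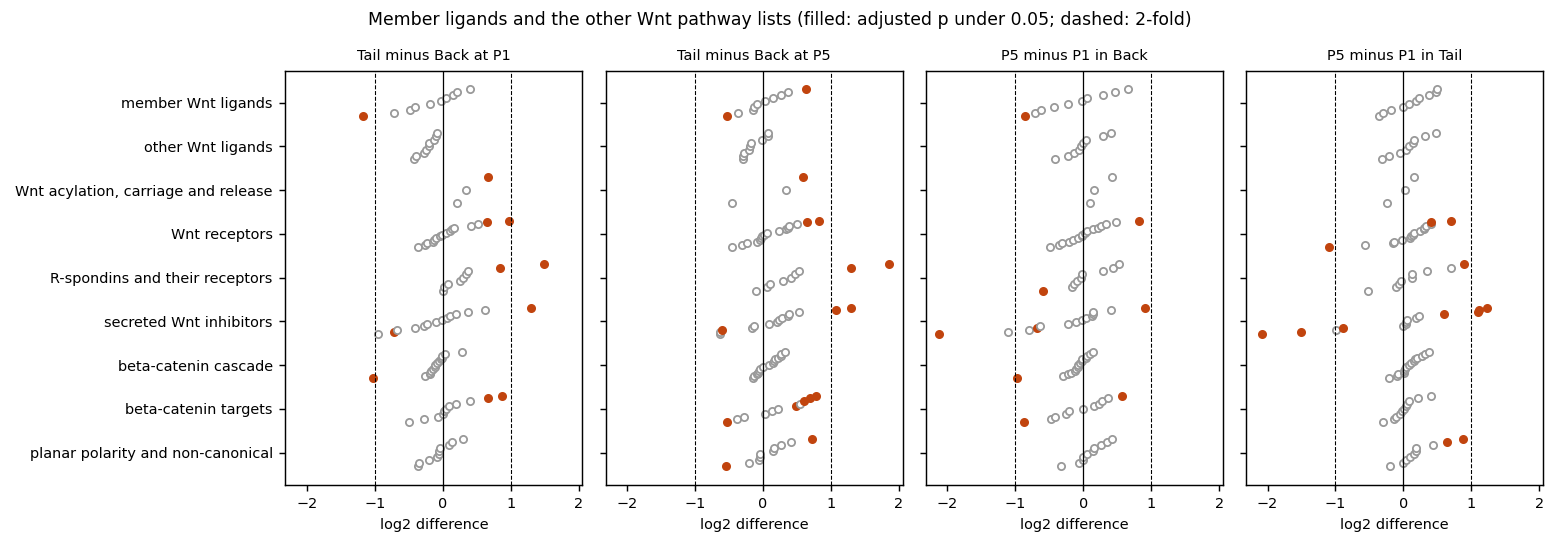
Log2 difference (horizontal axis) of the 10 members and of 87 other pathway genes, by list (vertical axis), in the comparisons of sites and of ages; each point is a gene, filled where the adjusted p from limma was under 0.05, and dashed lines mark a 2-fold difference. The 9 other ligands have no filled point, and the secreted inhibitors reach further from 0 than the ligands, down to -2.12 for Dkk1.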

How the data were processed

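The authors hybridised RNA to Affymetrix MG430.2A arrays and normalised them by RMA in GeneSpring, and the deposited values are log2 values of 45101 probe sets on 12 arrays. Every probe set had a median of 0 over the arrays (the largest absolute median is 5e-07), a centring that the methods do not describe and that keeps differences and removes levels. The log base was taken to be that of RMA. Precision depends on the number of arrays. Array medians lay between -0.0232 and 0.0141, no 2 arrays were identical, and values were used as given.

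Without 64 control probe sets 45037 remained, of which 34945 had exactly 1 gene symbol, 932 several and 9160 none. The former were averaged into 18193 genes. The 17 member probe sets were matched by gene identifier to RefSeq (GRCm38.p6) and no symbol had changed. All 12 arrays were fitted in 4 groups with limma 3.58.1 (lmFit, eBayes) in R 4.3.3, giving 5 comparisons, and p-values were adjusted by Benjamini-Hochberg over all genes with a threshold of 0.05. "Called", "rose" and "fell" refer to that threshold. Differences are labelled tail minus labelled back, or P5 minus P1. The procedure was tested on simulated data.

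The members and lists were chosen with earlier results of these data known. Named genes are the members, up to 4 called genes per pathway list and comparison, the 2 marker genes with the largest difference, the 3 genes most correlated with each member and the genes next to a member. Alternatives were array centring, robust variances, array weights, only the arrays compared, the methods' t-test, other summaries of probe sets, a filter on variance, a replicate block, each array left out, and, chosen after seeing the data, P5 Tail 2 and 3 left out together. The methods' filter on low levels could not be repeated on centred values.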

Additional observations from a re-analysis of the deposited data

Results flagged for a closer look

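Wnt5a was marked because its site difference changed with age by a test of that change. The interaction of site and age was -0.76 on the log2 scale (standard error 0.18, adjusted p = 0.039 from limma over all genes). Labelled tail minus labelled back was 0.39 at P1 and -0.37 at P5, and at neither age did the values of the sites overlap. The interaction lay between -0.88 and -0.66 with 1 array left out at a time, and the call held in 3 of those 12 fits. Groups of 3 arrays are too small for a test of single outlying arrays.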

How the results depend on the processing

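Of 50 member differences, 37 kept their sign under every alternative, and none of the 13 that did not was called. Calls among the members were less stable. Wnt16 between ages in back was called in 21 of 22 alternatives, Wnt3 at P1 in 13 of 22, Wnt5b at P5 in 10 of 22, Wnt10b at P5 in 7 of 22, and the Wnt5a interaction in 8 of 21. Adjusted p ranged from 0.00021 to 0.11 for Wnt16, 0.00039 to 0.19 for Wnt3, 0.014 to 0.39 for Wnt5b, 0.029 to 0.31 for Wnt10b and 0.014 to 0.26 for Wnt5a. The causes were not tested.

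Members called between sites at P1 (1 as reported) were 5 with array weights, 2 with only the arrays compared, 2 with the most variable probe set, 2 with the variance filter, 2 with single probe sets, 3 without P5 Tail 2 and 3, and 0 with the methods' t-test, without suffixed probe sets (which leaves 7 members) and with the replicate block. At P5 (2 as reported) they were 1 with the most variable probe set and with single probe sets. They were 0 with array weights, only the arrays compared, the t-test, no suffixed probe sets and the replicate block. The fit without P5 Tail 2 and 3 leaves 1 array in P5 Tail. Member counts from it are therefore not given for comparisons that involve P5 Tail. Wnt3, Wnt5b and Wnt10b, the members called between sites, have suffixed probe sets only. They dropped out without those, so the 0 at P1 and at P5 in that setting does not bear on their calls. Between ages in back (1) they were 6 with array weights, 6 with only the arrays compared, 4 without P5 Tail 2 and 3, and 0 with the t-test. In the interaction (1) they were 0 with the most variable probe set, single probe sets and the replicate block. With 1 array left out the counts lay at 0 to 3, 0 to 2, 1 to 4, 0 to 1 (ages in tail) and 0 to 1.

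Pathway genes called at P1 (10) were 30 with array weights, 2 with the replicate block and 0 with the t-test. At P5 (15) they were 0 with the t-test and 9 without P5 Tail 2 and 3. Between ages in back (8) they were 26 with array weights, 19 with only the arrays compared, 15 without P5 Tail 2 and 3 and 1 with the t-test, and 2 to 15 with 1 array left out. Between ages in tail (13) they were 7 with only the arrays compared and 0 with the t-test. In the interaction (5) they were 12 with array weights, 8 with single probe sets and 4 to 8 with 1 array left out.

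The signs that turned were of differences that had not passed, the largest being that of Wnt3 between ages in tail (0.38). At P5 between sites Wnt3 was 0.066 with the replicate block, Wnt4 was -0.051 without P5 Tail 2 and 3, and Wnt7b was -0.0084 with array weights, -0.11 with the most variable probe set and -0.068 with the replicate block. Between ages Wnt5b in back was -0.00095 with the most variable probe set, and in tail Wnt3 was -0.036 and Wnt16 was 0.020 without P5 Tail 2 and 3, and Wnt11 was 0.020 with array weights. With 1 array left out, ranges that crossed 0 were, at P1, -0.10 to 0.014 for Wnt6 and -0.038 to 0.13 for Wnt10a. At P5 they were -0.43 to 0.11 for Wnt3, -0.12 to 0.30 for Wnt4, -0.029 to 0.12 for Wnt7b and -0.39 to 0.069 for Wnt10a. Between ages they were -0.072 to 0.15 for Wnt5b and -0.089 to 0.062 for Wnt10b in back, and -0.023 to 0.40 for Wnt4 and -0.065 to 0.087 for Wnt11 in tail. The interaction of Wnt10a ranged from -0.44 to 0.019.

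The replicate numbers shared by the sites (5 and 6 at P1, 2 and 3 at P5) are not stated to be pairs. Deviations from the group means of arrays with the same number correlated at 0.26, -0.01, 0.17 and -0.02. Other array pairs were not set beside these values, so they cannot decide whether the arrays were paired. The block fit takes site differences from the shared numbers alone, and it could not be fitted between ages, as each block lies within an age. With 6 arrays per comparison and no levels, small differences of weak probe sets cannot be judged.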
